A study of Mus musculus with 16 samples.

Results

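The comparison described here set primary mouse hepatocytes given a lipid mixture alone directly against hepatocytes given itaconate alone, and asked which genes separated these single treatments. The members were chosen by their labels: the 4 lipid-treated and the 4 itaconate-treated libraries, 8 of the 16 libraries of the series, paired by the replicate letter (A to D) in their names. RNA was sequenced in bulk after mRNA capture from hepatocytes of Wildtype mice, kept overnight in DMEM with 5% FBS and insulin-transferrin-selenium. Itaconate-treated cells received 10 mM sodium itaconate. Lipid-treated cells received a chemically defined lipid mixture at a 1:10 dilution, for which the labels list arachidonic acid (2 µg/mL), linoleic, myristic, oleic, palmitic and stearic acids (10 µg/mL each) and cholesterol (0.22 mg/mL), without saying whether these hold before or after dilution. The other 8 libraries, 4 from untreated and 4 from lipid + itaconate-treated cells, entered the same model and are given as reference levels. The study's methods describe hepatocytes freshly isolated from perfused livers and purified by low-speed centrifugation, with no sort, and wild-type mice that were adult males of C57BL/6J background. Neither the labels nor the methods say whether the letters stand for separate animals or cultures, so the p values measure only the spread between these libraries, which may be technical.

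Itaconate is a dicarboxylic acid that activated macrophages make from the citric acid cycle intermediate cis-aconitate through the enzyme encoded by *Acod1* (also called *Irg1*), and it is known to inhibit succinate dehydrogenase and to modify cysteines of regulatory proteins. The lipid mixture supplies free fatty acids and cholesterol. Hepatocytes sense fatty acids largely through the nuclear receptor PPAR alpha, which drives fatty acid oxidation, and they sense sterols through SREBP2, which drives cholesterol synthesis when membrane cholesterol is low, and LXR, which drives its export when oxysterols accumulate.

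Totals of expected counts ran from 23562859 to 28558693 in the lipid-treated and from 27211869 to 35512004 in the itaconate-treated libraries. All 12 hepatocyte markers examined passed the filter on low levels, and their summed level was 40799.8 to 52687 CPM (the usual counts per fixed library size, here with edgeR's TMM factors) with lipid and 47079 to 62886 CPM with itaconate (two-sided exact permutation test, p = 0.114, n = 4 and 4). The mitochondrial genome gave 4.21 ± 0.566% (SD, n = 4) and 4.16 ± 0.618% of counts (exact permutation p = 0.8286). The TMM scaling factors did not overlap, at 1.03 to 1.05 with lipid and 0.949 to 0.979 with itaconate, so each direction below is relative to the bulk of the transcriptome. In bulk RNA, fewer cells of a type and less RNA per cell cannot be told apart.

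Genes were tested where their average level across the 16 libraries reached 1 CPM. Of these 11675 genes, 6440 (55.2%) differed between the single treatments by edgeR's quasi-likelihood test with an adjusted p below 0.05. Log2 fold changes are given as lipid minus itaconate with their standard errors, so that a positive value means a higher level with lipid, and levels with ± are means and SD over the 4 libraries of a group. The direction was balanced, with 3248 genes (27.8%) higher in lipid-treated and 3192 (27.3%) higher in itaconate-treated hepatocytes. Of the 6440, 6175 differed in 1 direction within all 4 letters, as did 7479 of all 11675 genes tested. The model that made the calls held the replicate letter, so this agreement is not separate support for them. Most differences were small, with a median size of 0.36 on the log2 scale. At least 1.5-fold differences were called for 1462 genes (12.5%), of which 917 (7.85%) were higher with lipid and 545 (4.67%) higher with itaconate. Scaling by total counts in place of TMM raised the median log2 fold change of all genes from 0.00 to 0.11, and the called genes then split into 4517 higher with lipid and 1979 higher with itaconate (69.5% against 50.4% higher with lipid under TMM).

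**Figure D1:**
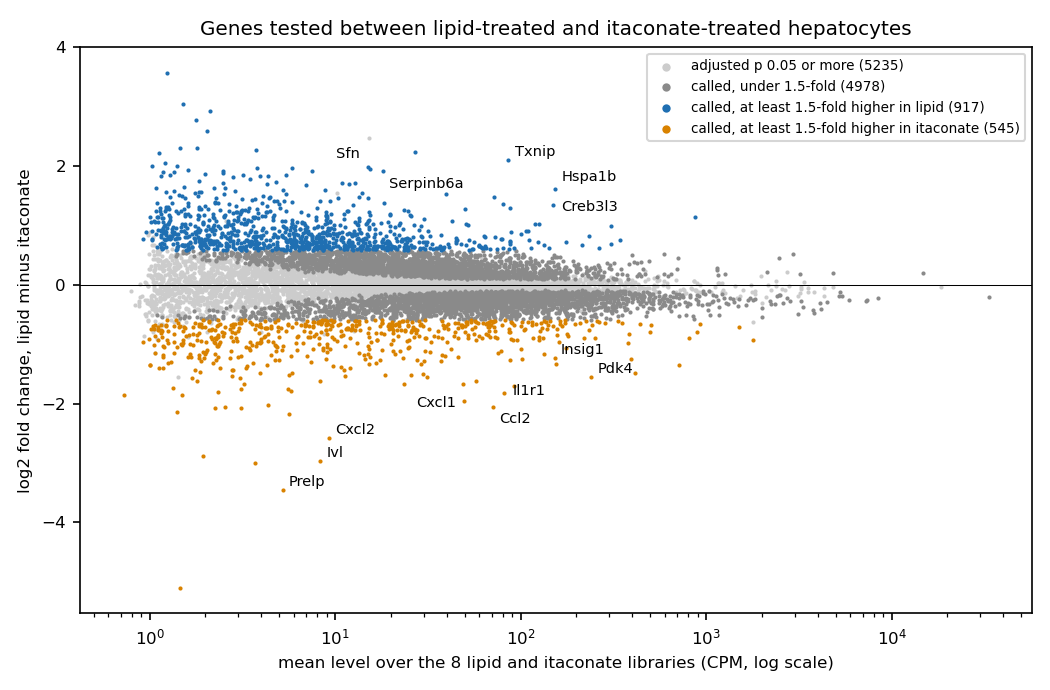
Log2 fold change (lipid minus itaconate) of each of the 11675 genes tested, against its mean level in CPM on a log axis over the 8 lipid-treated and itaconate-treated libraries; each point is a gene. The 917 blue and 545 orange points are genes called with at least a 1.5-fold difference, and *Txnip* and *Prelp* lie near the ends of the range among genes above 5 CPM.

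The largest difference toward lipid, among genes of at least 5 CPM that moved one way in every letter, was that of *Txnip*, which encodes an alpha-arrestin that binds thioredoxin and restrains glucose uptake (chr3:96557957-96561883, plus strand, GRCm38). It was at 154, 113, 144 and 145 CPM in lipid-treated libraries A to D and at 39.6, 35.6, 29.7 and 27.4 CPM in itaconate-treated libraries A to D. Every lipid-treated library lay well above every itaconate-treated one (log2 fold change 2.10 ± 0.16, adjusted p = 7.14e-08). *Creb3l3*, encoding the liver transcription factor CREB-H that governs triglyceride handling, had the smallest p of all named genes. Its levels were 215, 243, 211 and 191 CPM with lipid and 82.7, 95.5, 86.4 and 73.8 CPM with itaconate. The groups were well apart and tight (log2 fold change 1.35 ± 0.04, adjusted p = 1.27e-12). *Hspa1b*, 1 of the pair of near-identical inducible Hsp70 genes, stood at 233, 184, 242 and 266 CPM against 92.5, 60.1, 68.3 and 83.1 CPM, again without overlap (log2 fold change 1.61 ± 0.07, adjusted p = 1.98e-10). Reads may be shared between *Hspa1b* and its neighbour *Hspa1a*, which also differed (log2 fold change 1.10 ± 0.10, adjusted p = 5.89e-07).

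Several other strong lipid-side genes encode signalling proteins or inhibitors, at lower levels. *Serpinb6a*, an intracellular serine protease inhibitor, was at 33.96, 27.5, 24.6 and 28.7 CPM with lipid and 9.07, 7.43, 5.99 and 8.01 CPM with itaconate (log2 fold change 1.91 ± 0.09, adjusted p = 5.02e-10). *Sfn*, encoding the adaptor 14-3-3 sigma, was at 21.6, 29.9, 21.04 and 23.5 CPM and 5.58, 5.95, 6.51 and 5.97 CPM (log2 fold change 1.99 ± 0.12, adjusted p = 7.92e-09). The groups were apart for both genes. *Inhbe*, which encodes the hepatokine subunit inhibin beta E, was at 11.9 ± 2.82 CPM in lipid-treated and 3.15 ± 1.33 CPM in itaconate-treated hepatocytes (SD, n = 4; log2 fold change 1.92). *Nt5e*, encoding the ectonucleotidase CD73 that makes adenosine, was at 27.01, 26.4, 16.3 and 27.3 CPM with lipid, where library C stood apart below the rest, and 10.04, 6.02, 2.97 and 6.95 CPM with itaconate (log2 fold change 1.95 ± 0.17, adjusted p = 3.03e-07). The remaining genes of this kind were *Arvcf*, a delta-catenin (1.98), *Bco1*, which cleaves beta-carotene into retinal (1.72), the Ras effector *Rin1* (1.71), the Hedgehog transducer *Smo* (1.70), the hepcidin regulator hemojuvelin, *Hfe2* (1.69), and the arginine sensor *Castor1* (1.61). The adjusted p of these 6 ran from 1.23e-09 (*Smo*) to 1.66e-06 (*Hfe2*). *Arvcf* overlaps another gene, and *Serpinb6a* overlaps *Nqo2* and *Ripk1*, on the opposite strand.

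On the itaconate side, the largest difference was that of *Prelp*, which encodes a leucine-rich proteoglycan of the extracellular matrix (chr1:133910304-133921414, minus strand). Itaconate-treated libraries A to D held 15.4, 5.29, 9.34 and 8.24 CPM and lipid-treated libraries A to D 1.42, 0.903, 0.649 and 0.473 CPM. All lipid-treated libraries were low, and the itaconate-treated ones were far above them while varying among themselves, with A the highest (log2 fold change −3.45 ± 0.21, adjusted p = 5.42e-09). *Ivl*, encoding the epithelial envelope protein involucrin, was at 8.88, 13.1, 15.7 and 20.6 CPM with itaconate and 0.609, 1.24, 1.70 and 4.42 CPM with lipid (log2 fold change −2.96 ± 0.21, adjusted p = 3.14e-08). The groups again did not overlap. Untreated hepatocytes were at 10.2 ± 3.13 CPM for *Prelp* and 20.8 ± 8.43 CPM for *Ivl*, on the side of the itaconate-treated libraries in both cases.

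Other genes with a large excess in itaconate-treated cells were *Il1r1*, the signalling receptor for interleukin-1, at 107, 106, 166 and 129 CPM with itaconate and 40.2, 30.5, 37.1 and 35.00 CPM with lipid (log2 fold change −1.81 ± 0.09, adjusted p = 1.99e-09), without overlap. *Rarb*, a retinoic acid receptor (log2 fold change −1.74 ± 0.11, adjusted p = 6.48e-09), and *Cyp26a1*, the enzyme that degrades retinoic acid (log2 fold change −1.61 ± 0.18, adjusted p = 3.45e-06), were both lower with lipid. *Etfbkmt*, a methyltransferase acting on the electron transfer flavoprotein beta subunit, was at 23.5 ± 4.15 CPM in lipid-treated and 74.4 ± 12.9 CPM in itaconate-treated hepatocytes (SD, n = 4; log2 fold change −1.67 ± 0.08, adjusted p = 5.02e-10). *Cxcl12*, a homeostatic chemokine (−1.62), was lower with lipid too. The smallest p values on this side belonged to *Mum1l1*, *Mocs2* (molybdopterin synthase), *Pim3* (a serine/threonine kinase), *Etfbkmt* and *Arhgap42* (a GTPase-activating protein), with log2 fold changes of −1.56, −1.24, −1.08, −1.67 and −1.11 and adjusted p of 9.71e-10 or less. *Zbed6* (−1.78) lies within *Zc3h11a* on the same strand, so its count is uncertain, and *Rarb* overlaps *Top2b* on the opposite strand.

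**Figure D2:**
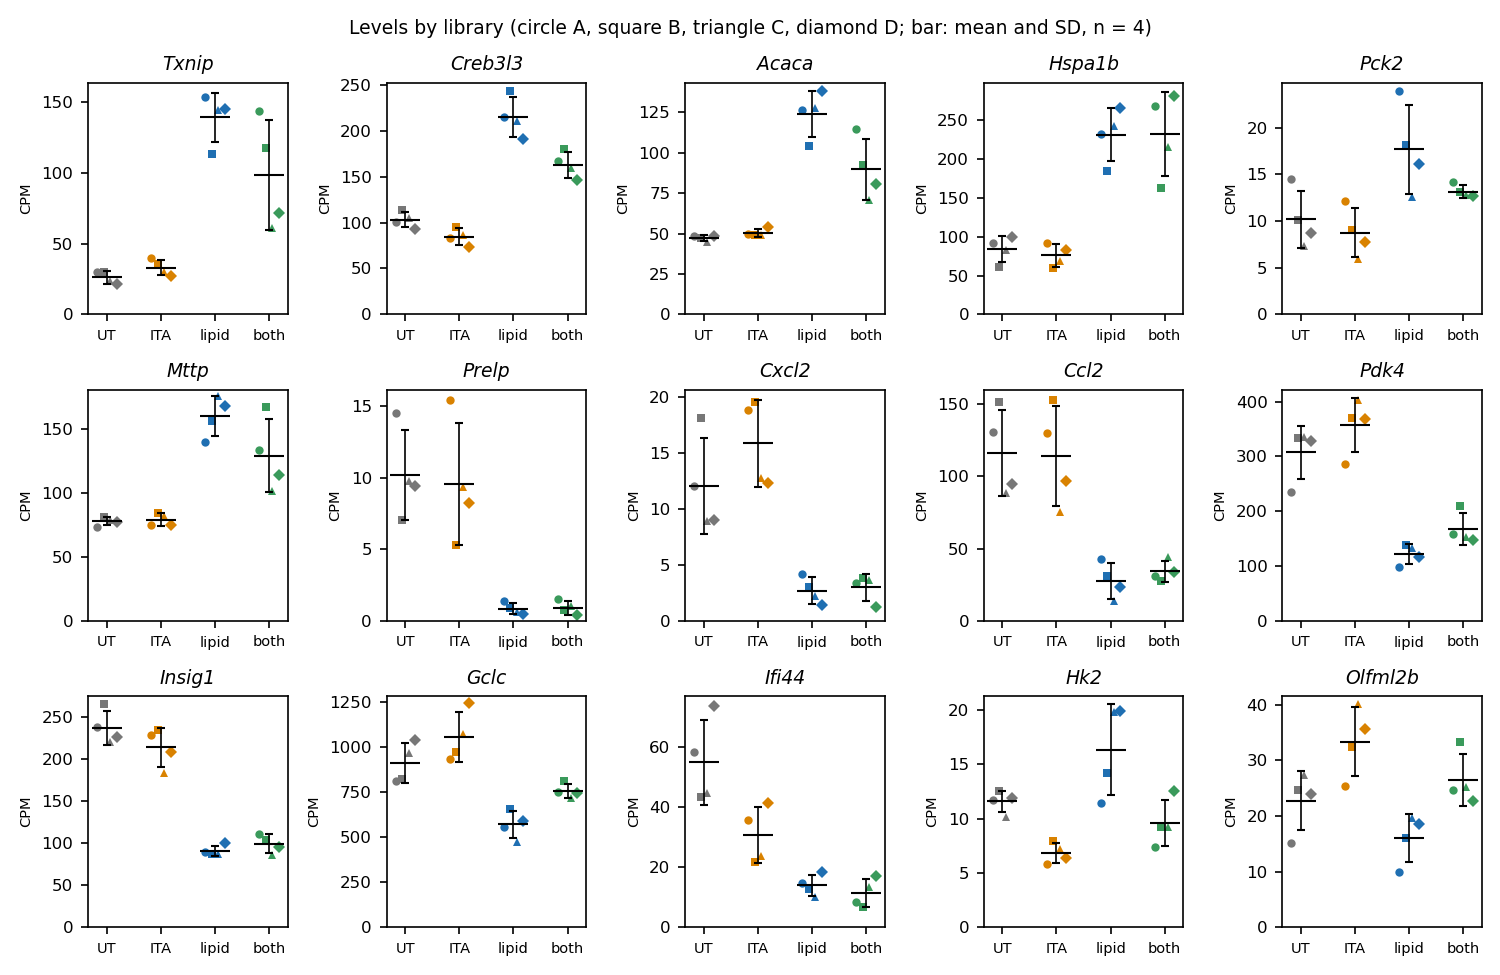
Levels in CPM of 15 genes in untreated (UT), itaconate-treated (ITA), lipid-treated and lipid + itaconate-treated (both) hepatocytes, each axis starting at 0; each symbol is 1 library, its shape the replicate letter, and bars are the mean and SD (n = 4). In the first 6 panels, from *Txnip* to *Mttp*, and in that of *Hk2* the lipid-treated libraries lie above all itaconate-treated ones, and in the others they lie below.

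Inflammatory and acute phase genes, which hepatocytes switch on in response to cytokines, had the largest share of members called among the 22 pathway lists. Of 30 genes tested (34 listed), 25 were higher with itaconate and 3 with lipid (93.3% called, against 55.2% of all genes), and their median log2 fold change was −0.48, against 0.00 over all genes tested. Without the replicate letter in the model 63.3% were called, against 44.6% of all genes in that fit. That share was below those of the PPAR alpha and beta-oxidation lists (66.7% each) and the triglyceride and lipid droplet list (63.6%). Chemokines led. *Cxcl2*, a neutrophil chemoattractant (chr5:90903871-90905938, plus strand), was at 18.9, 19.6, 12.8 and 12.3 CPM in itaconate-treated and 4.18, 3.01, 2.23 and 1.45 CPM in lipid-treated libraries. Its paralogue *Cxcl1* (chr5:90891241-90893115, plus strand) was at 90.7, 88.8, 63.9 and 71.5 CPM and 27.7, 25.8, 14.2 and 15.3 CPM. *Ccl2*, which attracts monocytes (chr11:82035571-82037453, plus strand), was at 129.9, 153, 75.5 and 96.9 CPM and 42.98, 30.96, 13.7 and 23.4 CPM. None of the 3 chemokines had overlapping groups. Log2 fold changes were −2.58 ± 0.20 (adjusted p = 6.18e-08) for *Cxcl2*, −1.95 ± 0.11 (adjusted p = 3.10e-09) for *Cxcl1* and −2.05 ± 0.23 (adjusted p = 2.98e-06) for *Ccl2*. Untreated hepatocytes, at 12.1 ± 4.32, 60.8 ± 17.7 and 116 ± 29.8 CPM, lay nearer the itaconate-treated than the lipid-treated level for each.

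The promoters of *Cxcl1* and *Cxcl2* are shown because these neighbouring genes on chromosome 5 moved together and both windows hold matches to the NF-kappaB letters GGGNNTTTCC (N is any base), a motif chosen after the values were seen. The sequences are the 250 bases before the RefSeq start (GRCm38.p6), 5′ to 3′ on the strand of the gene, with matches on either strand in capitals. That of *Cxcl1* is chr5:90890995-90891244 on the plus strand, with matches starting 89 and 71 bases before the start. That of *Cxcl2* is chr5:90903649-90903898 on the plus strand, with matches 97 and 78 bases before the start.
Cxcl1: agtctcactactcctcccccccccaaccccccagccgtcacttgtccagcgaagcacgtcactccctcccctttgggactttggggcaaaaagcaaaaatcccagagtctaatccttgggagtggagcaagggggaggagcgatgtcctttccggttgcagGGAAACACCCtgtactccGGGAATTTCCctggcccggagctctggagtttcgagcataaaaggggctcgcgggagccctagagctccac
Cxcl2: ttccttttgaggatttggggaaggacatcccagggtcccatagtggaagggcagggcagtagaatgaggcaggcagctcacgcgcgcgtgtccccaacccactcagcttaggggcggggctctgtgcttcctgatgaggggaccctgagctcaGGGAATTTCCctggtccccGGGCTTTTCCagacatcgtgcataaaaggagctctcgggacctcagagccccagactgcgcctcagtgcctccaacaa
Among the 26 listed genes with a promoter window (250 bases before to 50 after the start), 6 held the motif, and 1.63% of all 32851 windows in the table did. A match is a description of letters, and binding was not measured.

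Intracellular members of the same list were called as well. *Nfkbiz*, an inducible NF-kappaB cofactor, was at 42.2, 38.7, 42.4 and 43.03 CPM with itaconate and 13.7, 17.04, 18.1 and 17.4 CPM with lipid (log2 fold change −1.33 ± 0.07, adjusted p = 2.68e-09). The groups did not overlap. The NF-kappaB inhibitors *Tnfaip3* (−1.18) and *Nfkbia* (−0.83), the cytokine signalling inhibitor *Socs3* (−0.88) and the adhesion molecule *Vcam1* (−1.68) were lower with lipid (adjusted p of 9.56e-07 or less). Among secreted acute phase proteins, *Saa3* (−1.26), *Apcs* (−0.93), *Crp* (−0.89) and fibrinogen beta, *Fgb* (−0.42), were lower with lipid, and *Saa1*, which may share reads with its near-identical copy *Saa2*, differed less (−0.35). The 3 genes higher with lipid were *Ccl5* (1.06), a T cell chemoattractant, *Orm2* (0.30) and *Itih3* (0.15), the last a pair of acute phase proteins whose calls were lost without the replicate letter in the model (adjusted p = 0.0863 and 0.289), that of *Itih3* also without lipid replicate A. *Il1b*, *Il6*, *Tnf* and *Cxcl5* did not reach the filter.

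Interferon-stimulated genes, which encode antiviral effectors and sensors, were mostly lower with lipid among the members called. Of 39 tested (41 listed), 24 were higher with itaconate and 2 (*Rsad2*, 0.32, and *Dhx58*, 0.22) with lipid (66.7% called, against 55.2% of all genes, median log2 fold change −0.36). Without the replicate letter in the model 12 were called (30.8%, below the 44.6% of all genes in that fit), all higher with itaconate, and neither *Rsad2* (adjusted p = 0.278) nor *Dhx58* (adjusted p = 0.182) was among them. *Dhx58* also lost its call when any of the 8 libraries except itaconate replicate A was left out. *Ifi44* was at 35.8, 21.8, 23.8 and 41.3 CPM with itaconate and 14.6, 12.8, 10.3 and 18.4 CPM with lipid, a clear gap in spite of the wide spread within the itaconate group (log2 fold change −1.11 ± 0.15, adjusted p = 2.11e-05). *Cxcl10*, an interferon-induced chemokine, was at 126, 109, 109 and 129 CPM and 65.2, 53.2, 57.97 and 74.6 CPM (log2 fold change −0.92 ± 0.05, adjusted p = 1.57e-09). The groups were apart. *Oas1g*, an RNA-activated antiviral synthetase whose reads may be shared with *Oas1a*, was at or under about 1 CPM in most libraries (1.31, 0.998, 0.866 and 1.35 CPM with itaconate and 0.406, 0.0376, 0.365 and 0.473 CPM with lipid, log2 fold change −1.85 ± 0.47, adjusted p = 0.00369).

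Here both single treatments lay on the same side of the untreated cells. *Ifi44* was at 54.9 ± 14.1 CPM in untreated hepatocytes, *Cxcl10* at 158 ± 17.7 CPM, and *Irf7*, the master regulator of the response, at 102 ± 19.4 CPM against 67.8 ± 14.4 CPM with itaconate and 46.1 ± 9.26 CPM with lipid. For 0 of the 26 called members did the untreated level fall between the single treatments, whereas it did for 4729 (73.4%) of all 6440 called genes. The difference between the treatments was called for *Irf7* (log2 fold change −0.55 ± 0.09, adjusted p = 1.22e-04), although its libraries overlapped.

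The promoters of *Oas1g* and *Cxcl10* are printed to show the interferon-stimulated response element, searched as GAAA, any pair of bases, GAAA on either strand. The window of *Oas1g* (chr5:120887614-120887863 on the minus strand) holds overlapping matches 18 and 12 bases before the start, and that of *Cxcl10* (chr5:92348890-92349139 on the minus strand) holds 1 match 213 bases before it. Capitals mark the matches.
Oas1g: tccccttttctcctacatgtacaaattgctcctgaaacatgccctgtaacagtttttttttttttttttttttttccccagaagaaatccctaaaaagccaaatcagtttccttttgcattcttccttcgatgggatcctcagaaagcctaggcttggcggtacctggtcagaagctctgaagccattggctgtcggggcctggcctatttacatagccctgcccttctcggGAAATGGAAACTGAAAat
Cxcl10: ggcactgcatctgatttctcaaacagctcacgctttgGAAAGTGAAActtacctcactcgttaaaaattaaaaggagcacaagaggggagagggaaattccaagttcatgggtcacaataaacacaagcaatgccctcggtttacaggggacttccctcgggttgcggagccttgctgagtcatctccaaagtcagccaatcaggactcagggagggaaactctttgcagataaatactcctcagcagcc
The element was found in 20 of the 30 listed genes with a window and in 3.44% of all windows. It was present in 11 of the 16 members higher with itaconate that had a window.

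Of 21 enzymes of cholesterol synthesis tested, 14 were higher in itaconate-treated and 2 in lipid-treated cells (76.2% called, against 55.2% of all genes, median log2 fold change −0.25). The 14 became 9 both without the replicate letter and with total-count scaling. The early enzymes *Hmgcs1* (log2 fold change −0.69 ± 0.08, adjusted p = 6.86e-06) and *Idi1* (log2 fold change −0.87 ± 0.10, adjusted p = 4.31e-06) and the cyclase *Lss* (log2 fold change −0.78 ± 0.09, adjusted p = 4.95e-06) differed most toward itaconate. *Hmgcs1* was at 257, 211, 153 and 211 CPM with itaconate and 129, 122, 116 and 147 CPM with lipid, and the groups did not overlap. Untreated cells were higher than either, at 270.3 ± 31.8 CPM for *Hmgcs1* and 119 ± 17.3 CPM for *Idi1*. Among the members higher with lipid was *Dhcr7*, the last enzyme of the pathway (log2 fold change 0.78 ± 0.13, adjusted p = 9.18e-05), although its libraries overlapped.

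The sterol regulatory element, searched as TCACNCCAC, was found in 1 of the 16 enzymes with a promoter window, *Hmgcs1*, and in 1.24% of all windows. Its promoter is therefore shown (chr13:119690101-119690350 on the plus strand), with the match 137 bases before the start in capitals.
Hmgcs1: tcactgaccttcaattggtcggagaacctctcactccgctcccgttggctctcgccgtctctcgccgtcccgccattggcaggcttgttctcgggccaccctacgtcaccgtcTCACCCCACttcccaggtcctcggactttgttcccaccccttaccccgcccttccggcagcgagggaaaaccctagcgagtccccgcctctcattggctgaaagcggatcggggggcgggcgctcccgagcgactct
The letters may lie outside these windows in the other genes.

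Among genes that sense and take up sterols, *Insig1*, which holds the SREBP escort in the endoplasmic reticulum and is itself an SREBP target, was at 229, 235, 184 and 208 CPM with itaconate and 90.1, 86.7, 87.5 and 99.7 CPM with lipid. The lipid-treated libraries were close together and all below those with itaconate (log2 fold change −1.23 ± 0.06, adjusted p = 2.41e-09). *Srebf2* itself (log2 fold change −0.30 ± 0.06, adjusted p = 4.18e-04) was also lower with lipid. In the whole list the share called (57.1%) was near that of all genes, with 7 of 14 higher with itaconate and 1 with lipid, and with total-count scaling the called members split 4 and 4. Of 12 LXR targets and sterol efflux genes tested, 6 were higher with itaconate and 1 with lipid (58.3% called, near the 55.2% of all genes). *Abcg5*, a subunit of the sterol exporter of the canalicular membrane, was at 6.49, 5.99, 6.66 and 3.89 CPM with itaconate and 3.33, 2.86, 3.12 and 2.53 CPM with lipid, without overlap (log2 fold change −0.94 ± 0.16, adjusted p = 1.47e-04). *Abca1* (−0.33, adjusted p = 9.32e-05) and *Srebf1* (−0.60, adjusted p = 2.58e-06) differed in the same direction and *Lpcat3*, a phospholipid-remodelling enzyme, in the other (0.39, adjusted p = 0.00156). The receptor gene *Nr1h3* (log2 fold change −0.20 ± 0.07, adjusted p = 0.017) overlapped between groups and lost its call without the replicate letter, with total-count scaling, or without lipid replicate B or C or itaconate replicate B (adjusted p up to 0.257).

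Bile acid genes differed in both directions, with 8 of 16 higher with itaconate and 3 with lipid (68.8% called, against 55.2% of all genes, median −0.25). The sinusoidal and canalicular transporters *Slco1b2* (−0.57), *Abcc2* (−0.38) and *Abcb11* (−0.31) were lower with lipid. *Abcc3*, a basolateral exporter, was higher with lipid, at 467 ± 16.1 CPM in lipid-treated and 331 ± 20.3 CPM in itaconate-treated hepatocytes (log2 fold change 0.50 ± 0.04, adjusted p = 6.87e-08), as was *Cyp8b1*, the sterol 12-alpha-hydroxylase that sets the cholic acid share (log2 fold change 0.67 ± 0.08, adjusted p = 9.71e-06).

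Genes of fatty acid synthesis did not move as a block. Acetyl-CoA carboxylase 1, *Acaca*, which makes the malonyl-CoA from which fatty acids are built, was at 126, 104, 128 and 138 CPM with lipid and 49.6, 49.3, 48.9 and 54.1 CPM with itaconate, with no overlap (log2 fold change 1.29 ± 0.10, adjusted p = 9.01e-08). *Mid1ip1*, an activator of that enzyme, was higher too (log2 fold change 0.60 ± 0.07, adjusted p = 4.91e-06). In contrast, the desaturases *Scd2* (log2 fold change −1.27 ± 0.19, adjusted p = 4.95e-05) and *Fads1* (−0.52, adjusted p = 1.92e-06), the regulator *Srebf1* (−0.60) and *Fasn* (−0.24, adjusted p = 2.32e-04) were lower with lipid. In all 9 of 19 genes were higher with itaconate and 3 with lipid (63.2% called, against 55.2% of all genes, median −0.18). Without the replicate letter in the model 47.4% were called, near the 44.6% of all genes in that fit.

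Triglyceride and lipid droplet genes were split, with 13 of 22 higher with itaconate and 6 with lipid (86.4% called, against 55.2% of all genes, median −0.24). *Plin2*, the main droplet coat protein of hepatocytes, was at 946, 1188, 1154 and 1278 CPM with itaconate and 655, 729, 565 and 676 CPM with lipid. Its level was lower in the cells given fatty acids, with the groups apart (log2 fold change −0.79 ± 0.08, adjusted p = 1.66e-06). *Plin4* (−0.74), the phosphatidate phosphatase *Lpin1* (−0.70), the lipase *Pnpla2* (−0.65) and the acyltransferase *Dgat2* (−0.50) were also lower with lipid (adjusted p of 0.001 or less). *G0s2*, the inhibitor of that lipase, was higher (log2 fold change 0.82 ± 0.17, adjusted p = 7.61e-04, libraries overlapping), and so were *Cidec*, which fuses droplets (0.58, adjusted p = 0.0015), and *Lpin3* (0.57, adjusted p = 5.16e-04).

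Several genes that load lipid onto lipoproteins were higher with lipid, although the whole list was called about as often as all genes (5 of 21 higher with lipid, 7 with itaconate, 57.1% called). *Mttp*, the transfer protein that lipidates apolipoprotein B, was at 139.7, 156, 176 and 168 CPM with lipid and 74.7, 84.6, 81.8 and 75.2 CPM with itaconate, with no overlap (log2 fold change 1.02 ± 0.10, adjusted p = 1.05e-06). *Tm6sf2* (log2 fold change 0.99 ± 0.13, adjusted p = 1.68e-05), which supports VLDL lipidation, and *Apoa5* (log2 fold change 0.72 ± 0.07, adjusted p = 7.01e-07), an activator of plasma triglyceride clearance, were higher as well. *Lpl*, lipoprotein lipase, was lower with lipid (log2 fold change −1.003 ± 0.11, adjusted p = 1.68e-06). *Mttp* overlaps *Trmt10a* on the opposite strand.

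Most targets of PPAR alpha were lower with lipid than with itaconate. Of 24 genes tested, 18 were higher with itaconate and 2, *Txnip* and *Creb3l3*, with lipid (83.3% called, against 55.2% of all genes), and the median log2 fold change was −0.48. *Pdk4*, the kinase that turns off pyruvate dehydrogenase in fasting, was at 287, 370.2, 403 and 369 CPM with itaconate and 98.5, 138, 133 and 117 CPM with lipid. The groups were far apart (log2 fold change −1.56 ± 0.09, adjusted p = 3.13e-09). *Angptl4*, a secreted inhibitor of lipoprotein lipase, was at 129.7, 152, 127 and 133 CPM and 74.2, 68.4, 56.3 and 59.98 CPM (log2 fold change −1.07 ± 0.07, adjusted p = 1.95e-08). Also lower with lipid were the coactivator *Ppargc1a* (−0.97), the fatty acid translocase *Cd36* (−0.65) and *Cpt1a*, which admits acyl chains to mitochondria (−0.45), with adjusted p of 7.43e-04 or less. *Ppara* was not called (log2 fold change 0.22 ± 0.16, adjusted p = 0.249), with 3 of 4 letters higher in lipid, except without lipid replicate D (adjusted p = 0.0337).

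In mitochondrial beta-oxidation, 14 of 21 genes were higher with itaconate and 1 (*Acads*, 0.19, adjusted p = 0.0574 with the replicate letter left out) with lipid (71.4% called, against 55.2% of all genes, median −0.27). *Eci2*, an enoyl-CoA isomerase needed for unsaturated chains, was at 54.6, 61.1, 68.6 and 62.9 CPM with itaconate and 37.6, 38.9, 37.98 and 38.7 CPM with lipid, without overlap (log2 fold change −0.69 ± 0.06, adjusted p = 2.01e-07). The carnitine transporter *Slc22a5* (−0.57), the long-chain dehydrogenase *Acadl* (−0.50), *Etfa* (−0.47) and *Hadha* of the trifunctional protein (−0.28) differed the same way (adjusted p of 1.19e-04 or less). The hydratase *Echs1* was not called (log2 fold change −0.11 ± 0.05, adjusted p = 0.0728), but it was when the model held only the 8 libraries or lacked itaconate replicate C (lowest adjusted p = 0.0438). *Aldh1b1*, a mitochondrial aldehyde dehydrogenase, was higher with lipid at low level, 3.76 ± 0.507 CPM in lipid-treated and 1.87 ± 0.447 CPM in itaconate-treated hepatocytes (log2 fold change 1.02 ± 0.19, adjusted p = 3.25e-04).

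The integrated stress response, in which the factor ATF4 induces amino acid synthesis and transport genes, was 1 of 3 lists, with the citric acid cycle and cell cycle lists, in which more called members were higher with lipid. Of 27 tested, 13 were higher with lipid and 7 with itaconate (74.1% called, against 55.2% of all genes, median log2 fold change 0.29). *Pck2*, the mitochondrial phosphoenolpyruvate carboxykinase (chr14:55540266-55551242, plus strand), was at 23.9, 18.2, 12.6 and 16.1 CPM with lipid and 12.2, 9.02, 5.99 and 7.72 CPM with itaconate. The lowest lipid-treated library, C, was just above the highest itaconate-treated library, A, while within each letter lipid was higher (log2 fold change 1.02 ± 0.11, adjusted p = 2.70e-06). *Aldh18a1*, of proline synthesis (log2 fold change 1.02 ± 0.20, adjusted p = 4.72e-04), *Mthfd2*, of mitochondrial folate metabolism (log2 fold change 0.76 ± 0.09, adjusted p = 5.42e-06), *Psph*, of serine synthesis (0.70), asparagine synthetase, *Asns* (0.68), and the stress regulators *Nupr1* (0.71) and *Trib3* (0.34) were higher with lipid too. *Atf4* was not called (log2 fold change −0.03 ± 0.05, adjusted p = 0.578), and its log2 fold change turned to 0.07 with total-count scaling. The members higher with itaconate were led by the amino acid transporter *Slc38a2* (log2 fold change −0.75 ± 0.04, adjusted p = 1.99e-09) and *Cbs*, of transsulfuration (−0.51, adjusted p = 3.49e-06).

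The promoter of *Pck2* (chr14:55540016-55540265 on the plus strand) is shown for the letters of the C/EBP-ATF response element, TGATGNAA on either strand, which start 103 bases before the start and are in capitals.
Pck2: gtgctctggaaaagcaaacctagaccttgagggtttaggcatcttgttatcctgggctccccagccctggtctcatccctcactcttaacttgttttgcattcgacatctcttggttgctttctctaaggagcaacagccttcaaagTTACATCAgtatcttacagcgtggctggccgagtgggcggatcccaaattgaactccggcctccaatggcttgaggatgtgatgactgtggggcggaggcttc
These letters were in 6 of the 12 members higher with lipid that had a window, in 1 of the 7 higher with itaconate, and in 3.97% of all windows.

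Chaperones and folding enzymes of the endoplasmic reticulum went the other way from the integrated stress response, with 17 of 23 higher with itaconate and 1, *Ern1* (0.18), with lipid (78.3% called, against 55.2% of all genes, median −0.31). The translation-blocking kinase *Eif2ak3*, or PERK, was at 124, 109, 119 and 110.1 CPM with itaconate and 70.6, 59.1, 55.05 and 61.9 CPM with lipid, with no overlap (log2 fold change −0.91 ± 0.05, adjusted p = 2.74e-09). *Sdf2l1* (log2 fold change −0.95 ± 0.13, adjusted p = 1.46e-05) and *Herpud1* (log2 fold change −0.71 ± 0.09, adjusted p = 7.19e-06), of folding and degradation, were also lower with lipid, with overlapping groups. *Hspa5*, the lumenal chaperone BiP, differed less (−0.26, adjusted p = 6.26e-04, and 0.321 without the replicate letter).

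Targets of Nrf2, the regulator of antioxidant genes, differed in both directions (20 of 37 higher with itaconate, 8 with lipid, 75.7% called, against 55.2% of all genes, median −0.18). Itaconate and its derivatives are reported to activate Nrf2 in macrophages, and the cells here received unmodified sodium itaconate. *Gclc*, the rate-limiting subunit of glutathione synthesis, was at 932, 974, 1074 and 1243 CPM with itaconate and 558, 655, 475 and 591 CPM with lipid, with no overlap (log2 fold change −0.89 ± 0.09, adjusted p = 1.28e-06). *Txnrd1* (log2 fold change −0.50 ± 0.04, adjusted p = 2.71e-07), *Gsta3* (log2 fold change −0.50 ± 0.08, adjusted p = 5.82e-05) and *Nfe2l2* itself (log2 fold change −0.32 ± 0.04, adjusted p = 6.87e-06) were also lower with lipid, and reads of *Gsta* and *Gstm* copies may be shared. Among the members higher with lipid were *Gstm4* (0.64), *Abcc3* (0.50), *Srxn1* (0.46) and the classical target *Nqo1*, at 7.92 ± 2.36 CPM in lipid-treated and 5.86 ± 1.46 CPM in itaconate-treated hepatocytes (log2 fold change 0.42 ± 0.10, adjusted p = 0.00299). *Nqo1* overlapped between groups and was not called without the replicate letter (adjusted p = 0.162). For *Gclc*, untreated cells were at 909 ± 111 CPM, between the single treatments and nearer the itaconate-treated level. Untreated cells were also nearer the itaconate-treated cells for 23 of the 28 called members (82.1%, near the 82.8% of all called genes).

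Sodium itaconate adds solute, and 12 osmotic stress genes were examined. Their share called (58.3%) was near that of all genes, with 4 higher with itaconate and 3 with lipid, and the median of −0.03 changed sign to 0.07 with total-count scaling. For all 7 called members, untreated cells lay nearer the itaconate-treated than the lipid-treated cells, as they did for 82.8% of all called genes. *Sgk1*, a kinase of salt and volume control (log2 fold change −0.71 ± 0.15, adjusted p = 8.56e-04), the taurine transporter *Slc6a6* (−0.42, adjusted p = 1.53e-06), *Nfat5*, the tonicity factor (−0.36, adjusted p = 0.00773), and *Slc38a2* were higher with itaconate. Higher with lipid were the Hsp70 pair described above and the betaine transporter *Slc6a12* (0.20, adjusted p = 0.0112). *Nfat5* lost its call without the replicate letter in the model (adjusted p = 0.051) or with total-count scaling, and *Slc6a12* without the replicate letter (adjusted p = 0.0658) or without lipid replicate D.

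Of 22 citric acid cycle genes outside the succinate steps, 13 were higher with lipid and 4 with itaconate, by small amounts (77.3% called, against 55.2% of all genes, median log2 fold change 0.13). Those higher with lipid numbered 8 without lipid replicate D, and also 8 without the replicate letter. *Pdhb*, of pyruvate dehydrogenase, was at 112 ± 17.1 CPM in lipid-treated and 72.97 ± 6.09 CPM in itaconate-treated hepatocytes (log2 fold change 0.63 ± 0.12, adjusted p = 3.28e-04). The citrate carrier of the plasma membrane, *Slc13a5* (log2 fold change 0.56 ± 0.10, adjusted p = 2.53e-04), was higher with lipid. The cytosolic enzymes *Idh1* (log2 fold change −0.63 ± 0.05, adjusted p = 4.37e-08) and *Aco1* (log2 fold change −0.49 ± 0.06, adjusted p = 1.46e-05) were higher with itaconate.

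Of genes of itaconate breakdown and of succinate metabolism 40.0% were called, below the 55.2% of all genes. Of 15 tested, 4 were higher with itaconate and 2 with lipid, and the median log2 fold change of −0.03 changed sign to 0.07 with total-count scaling. *Clybl*, the citramalyl-CoA lyase that completes itaconate breakdown, was at 25.9 ± 1.71 CPM in lipid-treated and 20.5 ± 1.48 CPM in itaconate-treated hepatocytes (log2 fold change 0.34 ± 0.07, adjusted p = 0.0012). *Mut*, methylmalonyl-CoA mutase, which itaconyl-CoA is known to inactivate, was lower with lipid (log2 fold change −0.35 ± 0.05, adjusted p = 3.01e-05), and *Mmaa*, its cobalamin chaperone, was higher (log2 fold change 0.40 ± 0.10, adjusted p = 0.00426). None of the 4 succinate dehydrogenase subunit genes was called (adjusted p of 0.509 or more). *Acod1* did not reach the filter, at 0.452 ± 0.139 CPM with lipid and 0.721 ± 0.24 CPM with itaconate (SD, n = 4), and neither did *Adh7*, an alcohol dehydrogenase, at 0.743 ± 0.451 and 0.597 ± 0.144 CPM.

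Glycolytic and gluconeogenic genes were called about as often as all genes (51.9%), 7 in each direction, but included large differences. *Hk2*, an inducible hexokinase, was at 11.5, 14.2, 19.9 and 19.9 CPM with lipid and 5.80, 7.91, 7.23 and 6.40 CPM with itaconate, without overlap (log2 fold change 1.25 ± 0.15, adjusted p = 4.32e-06). *Pklr*, the hepatic pyruvate kinase (log2 fold change 0.89 ± 0.14, adjusted p = 7.74e-05), was higher with lipid. *Pck1*, the cytosolic carboxykinase of gluconeogenesis (log2 fold change −0.90 ± 0.17, adjusted p = 3.77e-04), *Pfkfb3* (−0.66, adjusted p = 0.0015) and lactate dehydrogenase A, *Ldha* (−0.54, adjusted p = 1.22e-05), were higher with itaconate. The median of −0.01 changed sign to 0.09 with total-count scaling.

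Urea cycle and amino acid breakdown genes were largely higher with itaconate (17 of 23, with 4 higher with lipid, 91.3% called, against 55.2% of all genes, median −0.38). Without the replicate letter in the model, 13 were called (11 higher with itaconate). *Aass*, of lysine breakdown (log2 fold change −0.76 ± 0.10, adjusted p = 1.02e-05), *Hal*, histidine ammonia-lyase (log2 fold change −0.83 ± 0.17, adjusted p = 5.84e-04), and *Oat*, ornithine aminotransferase (log2 fold change −0.59 ± 0.07, adjusted p = 3.21e-06), were lower with lipid. *Nags*, which makes the activator of the cycle (0.44, adjusted p = 4.45e-04), and glutamine synthetase, *Glul* (0.38, adjusted p = 0.00316), were higher. Beside these, 8 of 12 general hepatocyte markers were lower with lipid (3 without the replicate letter), such as *Fgb* (−0.42), and their part in the amino acid result was not tested. *Hnf4a*, the hepatocyte lineage factor, was not called (log2 fold change 0.12 ± 0.06, adjusted p = 0.135), but it was with total-count scaling or without lipid replicate C or D (lowest adjusted p = 0.0172).

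**Figure D3:**
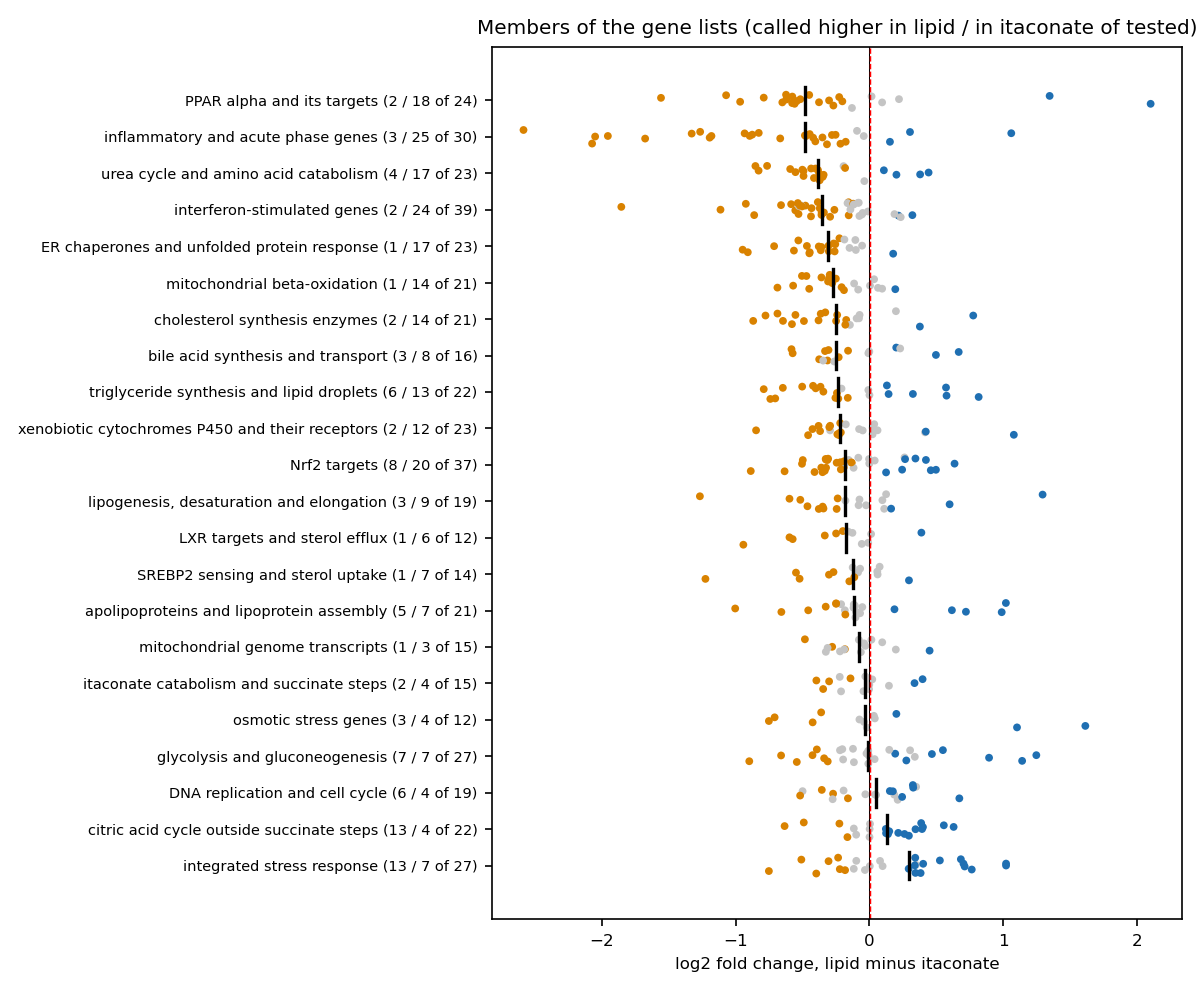
Log2 fold change (lipid minus itaconate) of every tested member of the 22 gene lists; each point is a gene, blue if called higher with lipid, orange if called higher with itaconate and grey if not called, the black bar is the list median and the red dashed line the median of all genes tested. Counts after each name are members higher with lipid, higher with itaconate and tested, and the PPAR alpha and inflammatory lists lie furthest to the left while the integrated stress response lies furthest to the right.

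Levels in the groups outside the contrast show on which side each difference lay. On the fitted log2 scale, untreated cells were nearer the itaconate-treated than the lipid-treated cells for 82.8% of the 6440 called genes and 91.0% of the 1462 with at least a 1.5-fold difference, against 71.9% of all genes tested. Lipid + itaconate-treated cells were nearer the lipid-treated cells for 85.4% and 90.4%, against 73.6% of all genes tested. *Txnip*, for example, was at 26.1 ± 4.47 CPM without treatment and 98.3 ± 39.01 CPM with both, and *Pdk4* at 308 ± 48.3 and 167 ± 28.8 CPM. These placements are descriptions and were not tested.

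A smaller set had the opposite placement. Untreated cells were nearer the lipid-treated ones for 38 genes that differed at least 1.5-fold, reached 5 CPM and moved one way in every letter, 22 of them higher with lipid and 16 higher with itaconate. The 5 largest in each direction were chosen after their values were seen. *Olfml2b*, an olfactomedin-like matrix protein, was at 25.4, 32.3, 40.1 and 35.6 CPM with itaconate, 9.87, 16.1, 19.7 and 18.5 CPM with lipid and 15.1, 24.6, 27.4 and 23.97 CPM untreated. The itaconate-treated libraries stood above all lipid-treated ones, and library A of them was within the untreated range (log2 fold change −1.07 ± 0.13, adjusted p = 7.95e-06). *Mmp12*, macrophage elastase (log2 fold change −1.19 ± 0.15, adjusted p = 8.77e-06), *Dppa3*, a factor known from germ cells and early embryos (log2 fold change −1.25 ± 0.15, adjusted p = 4.75e-06), *Ppl*, periplakin (log2 fold change −0.86 ± 0.09, adjusted p = 2.07e-06), and *Cep85l*, a centrosomal protein (log2 fold change −0.78 ± 0.06, adjusted p = 9.97e-08), were likewise higher with itaconate. *Hk2* was the leading gene lower with itaconate, with untreated libraries at 11.8, 12.6, 10.2 and 11.9 CPM, all above the itaconate-treated ones. It was followed by *Eif4e3*, a cap-binding protein (1.13), *Plekhh1* (1.01), *Tdp1*, a DNA repair phosphodiesterase (0.96), and *Ankrd23* (0.91).

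**Figure D4:**
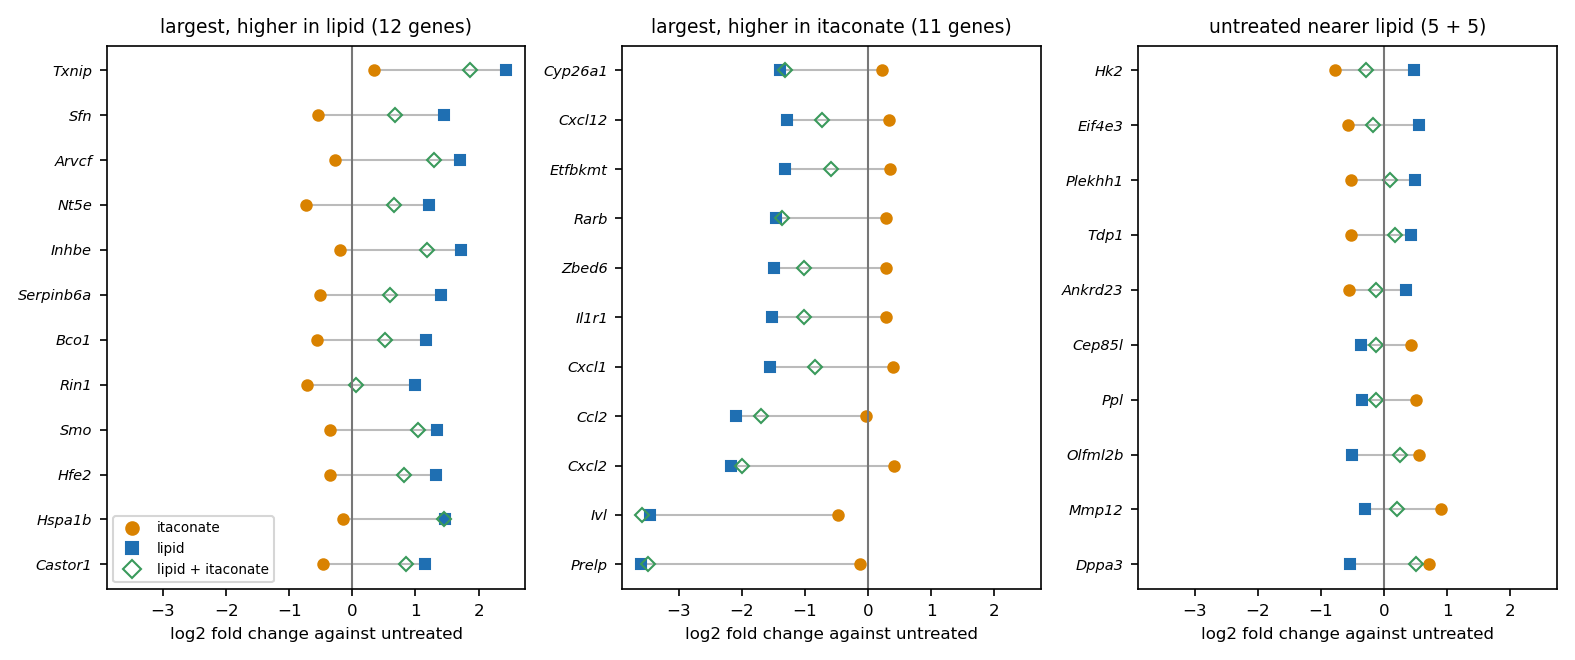
Log2 fold changes against untreated hepatocytes of itaconate-treated (circles), lipid-treated (squares) and lipid + itaconate-treated cells (open diamonds), for genes with the largest difference in each direction (12 higher with lipid, 11 with itaconate) and the 10 genes whose untreated level was nearer lipid; the vertical line is the untreated level, which all 3 values share. In the left and middle panels the circle lies nearer the line than the square for all 23 genes, and in the right panel the square does for all 10.

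Markers of other liver cells also differed, in the same libraries as the lists above. Of 12 macrophage and Kupffer cell markers 9 passed the filter, and *Adgre1* (−1.17), *Marco* (−1.08), *Cd5l* (−0.85), *C1qa* (−0.53), *Lyz2* (−0.51) and *C1qb* (−0.47) were lower with lipid, while *Cd68*, a lysosomal glycoprotein also expressed outside macrophages, was higher (log2 fold change 0.67 ± 0.05, adjusted p = 4.37e-08) and dominated their summed level (236 to 335 CPM with lipid, 165 to 254 CPM with itaconate, exact permutation p = 0.0571, where 0.0286 is the smallest p that 4 against 4 libraries can give). The other markers tested, *Clec4f* and *Csf1r*, were not called (77.8% of those tested were called, against 55.2% of all genes). *Clec4f* averaged 2.40 CPM with lipid and 2.31 CPM with itaconate, and *Csf1r* 2.49 and 2.69 CPM. *C1qa* and *C1qb* lost their calls without the replicate letter (adjusted p = 0.202 and 0.0957), and *C1qa* also without lipid replicate D or itaconate replicate A or with total-count scaling. None of the 12 was at 0 in all 8 libraries, and *Marco*, at 9.10, 15.4, 15.7 and 10.95 CPM with itaconate and 7.11, 6.88, 5.84 and 4.29 CPM with lipid, did not overlap between groups. The part of these cells in the chemokine, *Mmp12* and interferon results was not tested.

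Of 8 endothelial markers tested, 3 were higher with lipid (37.5% called, below the 55.2% of all genes), *Stab1* (0.86), *Lyve1* (1.19) and *Kdr* (0.59). *Stab2* was not called (log2 fold change −0.31 ± 0.20, adjusted p = 0.193), with lipid below itaconate in every letter. The summed level of all 10 markers listed was 36.5 to 46.5 CPM with lipid and 23.2 to 33.8 CPM with itaconate (exact permutation p = 0.0286), and 6.91 of the 11.8 CPM between the group means came from *Stab1*. *Kdr* lost its call without the replicate letter or without lipid replicate A or itaconate replicate A (adjusted p up to 0.124). The 3 biliary markers tested, *Spp1* (−0.80) and *Sox9* (−0.37) among them, were lower with lipid (344 to 619 against 586 to 1060.0 CPM in sum, exact permutation p = 0.0571), while the defining cholangiocyte genes *Krt7* and *Cftr* were at 0 in all 8 libraries. Of 10 stellate cell markers only *Reln* passed the filter (log2 fold change −0.26 ± 0.09, adjusted p = 0.0183), and its call was lost with total-count scaling or without lipid replicate A or itaconate replicate B or C. None of 10 neutrophil and lymphocyte markers passed, and *Ly6g*, *Cd3g* and *Nkg7* were at 0 in all 8 libraries.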

How the data were processed

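Bulk mRNA sequencing covered 16 libraries of primary hepatocytes, 4 per group. Per the labels and the study's methods, libraries were made from 500 ng of total RNA with a stranded mRNA kit; reads were demultiplexed with bcl2fastq 2.20, adapters removed by cutadapt 1.18, alignments to mm10 made by STAR 2.7.0f (Picard 2.18.26 is also listed), and the authors deposited RSEM 1.3.1 expected counts for 55450 genes. The strand setting of the counting is not given in the sources used here. No values were pooled over libraries.

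The expected counts (5.41% of values not whole) were rounded. The 11675 genes whose average across all 16 libraries reached 1 CPM were scaled by TMM and fitted in edgeR 4.0.16 (R 4.3.3; quasi-likelihood test, prior count 0.5, Benjamini-Hochberg adjustment) with group and replicate letter in one model of all 16 libraries, so that the 4 groups share an estimate of spread. A gene was called at an adjusted p under 0.05, and groups were said not to overlap where the highest library of one lay below the lowest of the other. Totals of 22346049 to 35512004 counts per library limit the precision of genes near 1 CPM. The letters were kept as a block because the comparison pairs libraries by letter and the study's methods remove a batch. Deviations from the group means correlated at 0.163 to 0.393 between the lipid-treated and itaconate-treated library of the same letter (4 pairs) and at -0.372 to 0.168 otherwise (12 pairs). Lipid-treated library D correlated about as much with itaconate-treated library C (0.168) as with D (0.163). No 2 libraries of a group agreed within sampling noise (chi-square per gene 10.0 to 41.8 over 12 pairs). All gene IDs were found in GENCODE release 21 for mouse (GRCm38), which gave positions and overlaps. Promoter windows came from RefSeq (GRCm38.p6). Sums of markers and library measures were compared with two-sided exact permutation tests.

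Alternatives were the model without the letter, RLE normalization, other filters or none, only the 8 libraries, a minimum change of 1.5-fold (glmTreat), DESeq2 1.42.0, limma-trend (limma 3.58.1), leaving out single libraries, and total-count scaling, the last added after the data were seen. Genes are named as the 12 largest and 5 most significant in each direction (own symbol, at least 5 CPM, 1 direction in every letter), up to 4 called members of each list by size, and a set of regulators given whatever their values. Further list members are given for their role and were chosen after their values were seen. Some genes that these rules pick are not reported here. The members and lists of this comparison were chosen with earlier results of these data known. The fit was tested on simulated counts with known changes before use. Those counts changed few genes, evenly in both directions, and held no letter effect, so they could not test the scaling or the block.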

Additional observations from a re-analysis of the deposited data

Results flagged for a closer look

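In the 4 lipid-treated libraries, *Nt5e* was at 16.34 CPM in library C and at 26.4 to 27.3 CPM in the others, a gap that made up most of the group's range by Dixon's test for a single distant sample. In the 4 itaconate-treated libraries, *Srebf2* was at 99.75 CPM in library C and at 115 to 117 CPM in the others. The TMM scaling factor was 0.9488 in itaconate-treated library A and 0.974 to 0.979 in the others. These are 3 of 114 groups of 4 libraries tested, and chance flags about 1 in 20 groups, or 5.7 here. Both genes kept their calls when any of the 8 single-treatment libraries, or lipid + itaconate replicate B, was left out.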

How the results depend on the processing

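The count of called genes was 5204 when the letter was dropped (no replicate block), 6467 with RLE normalization, 6350 with DESeq2, 6424 with limma-trend, 6726 with filterByExpr, 6700 without a filter and 6583 with only the 8 libraries, and leaving out 1 library gave 5720 (without itaconate replicate C) to 6559 (without lipid + itaconate replicate B). Tested against a minimum change of 1.5-fold (glmTreat), 484 genes were called, 283 higher with lipid and 201 with itaconate. Without the block, called members fell to 12 interferon-stimulated genes, 13 urea cycle and amino acid genes, 1 mitochondrial transcript and 3 hepatocyte markers. Also without the block, members higher with itaconate fell from 17 to 11 for endoplasmic reticulum chaperones, and those higher with lipid from 8 to 4 for Nrf2 targets and from 5 to 3 for lipoprotein genes. With total-count scaling, members higher with itaconate fell from 8 to 5 for bile acid genes, from 7 to 4 for the integrated stress response and from 4 to 2 for the citric acid cycle and for itaconate and succinate genes. With only the 8 libraries, lipoprotein genes higher with itaconate rose from 7 to 11. Cell cycle genes higher with itaconate fell from 4 to 2 without lipid replicate A. Total-count scaling left 1 mitochondrial transcript and 0 stellate cell markers, gave 5 endothelial markers and turned *Atf4* to 0.0685 and *Cyp1a2* to 0.0259 (log2 fold change). Mitochondrial transcripts called numbered 9 without a filter, 7 with only the 8 libraries and 1 to 6 when 1 library was left out (1 without lipid replicate B), and stellate cell markers 0 to 1. Leaving out 1 library, the difference in mitochondrial share of counts ran from −0.247 to 0.302 percentage points, that in summed neutrophil and lymphocyte markers from −0.0733 to 0.0328 CPM, and that in endothelial markers from 9.64 to 13.6 CPM, where 3 against 4 libraries cannot pass 0.05 (smallest exact p 0.0571). Of 146 genes picked by rule, 127 kept their call or its absence and direction under all 17 alternatives other than glmTreat, which was run for the count of all genes only. Among genes named by rule, dropping the letter also ended the calls of *Acot4*, *Cps1*, *Sds*, *Tat*, *mt-Atp8*, *mt-Cytb* and *mt-Rnr2*, and leaving out lipid replicate A or B ended those of *Abcg8* and *Ccne2*. Of these, *mt-Rnr2* lost its call under 8 of the 17 alternatives, DESeq2 among them, *mt-Cytb* under 7, *Tat* under 6 and *mt-Atp8* under 3. *Acot4* lost its call also with total-count scaling, and *Abcg8* also without itaconate replicate C. Levels near 1 CPM rest on few reads, and what a letter stands for is unknown. The causes of these shifts were not tested.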

Other observations

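Of the drug-metabolizing cytochromes P450 and their receptors, 12 of 23 tested were higher with itaconate and 2 with lipid (60.9% called, against 55.2% of all genes, median log2 fold change −0.22). With total-count scaling 6 were higher with itaconate and 4 with lipid. *Cyp2b10*, the classical target of the receptor CAR, was at 61.1, 64.3, 41.5 and 64.5 CPM in lipid-treated and 25.1, 35.1, 17.7 and 33.6 CPM in itaconate-treated libraries A to D, without overlap (log2 fold change 1.08 ± 0.09, adjusted p = 1.34e-07). The receptor PXR, *Nr1i2*, was also higher with lipid (log2 fold change 0.42 ± 0.09, adjusted p = 6.57e-04), while CAR itself, *Nr1i3*, was lower (log2 fold change −0.46 ± 0.16, adjusted p = 0.0224) and lost its call with total-count scaling or without lipid replicate B or itaconate replicate C (adjusted p up to 0.0943). The aryl hydrocarbon receptor *Ahr* was at 61.7, 65.3, 72.00 and 69.8 CPM with itaconate and 31.4, 43.4, 36.3 and 38.5 CPM with lipid, the groups well apart (log2 fold change −0.85 ± 0.06, adjusted p = 4.02e-08). Its target *Cyp1a2* was not called (log2 fold change −0.08, adjusted p = 0.203).

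DNA replication and cell cycle genes were called in both directions, 6 of 19 higher with lipid and 4 with itaconate (52.6% called, near the 55.2% of all genes, median 0.05). Within the replicative helicase, *Mcm2* was higher with lipid (log2 fold change 0.32 ± 0.09, adjusted p = 0.00487) and *Mcm6* higher with itaconate (log2 fold change −0.36 ± 0.08, adjusted p = 0.00116). The kinase of mitotic entry, *Cdk1*, was higher with lipid at low level (2.93 ± 0.917 CPM in lipid-treated and 1.80 ± 0.244 CPM in itaconate-treated hepatocytes, SD, n = 4; log2 fold change 0.67 ± 0.17, adjusted p = 0.00379), as was the cell cycle inhibitor *Cdkn1a* at a much higher level (log2 fold change 0.33 ± 0.05, adjusted p = 1.22e-04). Of 15 mitochondrial genome transcripts, 3 were higher with itaconate and 1, *mt-Nd5* (log2 fold change 0.45 ± 0.13, adjusted p = 0.00727), with lipid (26.7% called, below the 55.2% of all genes), and with total-count scaling only *mt-Nd5* was called and the list median changed from −0.08 to 0.02.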
